A study of Mus musculus with 6 samples.

Results

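The SLC25 carriers are the proteins that move metabolites, nucleotides and cofactors across the inner membrane of mitochondria, and their mRNA was followed here in mouse liver with and without an activated β-catenin. The genes were taken by name, as every gene whose symbol was Slc25a followed by a number, which gave 47 of the 31950 genes listed. RNA-seq had been performed on liver of 8-wk-old C57BL/6 mice, with 3 wild-type (WT) and 3 β-cateninΔ(ex3)/+ samples, in which 1 allele of Ctnnb1 lacked exon 3. Loss of exon 3 removes the phosphorylation sites that mark β-catenin for degradation, so the mutation acts as a gain of function. The study describes Δ(ex3)/+ livers as the product of a tamoxifen-inducible Cre under an albumin promoter, which acts in hepatocytes. Whether these very mice were made that way, whether the WT mice received tamoxifen, and the sex of the mice were not given in the sources used here. The tissue was whole liver, so a smaller share of cells of a type and less RNA per cell cannot be told apart.

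Most carriers of the family exchange a substrate of the matrix for one of the cytosol, and they share a fold of repeated pairs of helices around a central binding site. In hepatocytes they connect the pathways that are split between the compartments. The ADP/ATP carriers export ATP, the citrate carrier exports the carbon for fatty acid and sterol synthesis, the ornithine and aspartate/glutamate carriers serve the urea cycle, and the carnitine carrier brings acyl groups to β-oxidation.

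Known β-catenin targets were higher in the mutant livers. In a list of 7 genes, made of such targets and Ctnnb1 itself, 5 rose past both thresholds given below, beside 8.17% of all genes tested. Among them were Glul (glutamine synthetase, 103 ± 1.25 to 626 ± 7.13 FPKM, mean ± SD, n = 3) and Axin2 (1.11 ± 0.416 to 6.57 ± 0.601 FPKM). The target Lgr5 was higher without reaching 2-fold (log2 fold change 0.32), and Ctnnb1 averaged 27.0 FPKM in WT and 25.2 FPKM in mutant livers. FPKM is the number of sequenced fragments relative to the length of the transcript and to all mapped fragments of the library. The 2 groups also differed in genes that mark other features of the animals. Xist, transcribed from the inactive X chromosome, averaged 21.2 FPKM in WT and 0.00913 FPKM in mutant livers, and the Y-linked Ddx3y averaged 0.00519 and 5.89 FPKM. The 5 genes of a young liver list (Afp, H19, Igf2, Gpc3 and Dlk1) summed to between 3813 and 3880 FPKM in WT livers and between 3.98 and 4.39 FPKM in mutant livers, although all mice were labelled as 8 wk old. Genotype, sex-linked expression and this young liver signature therefore cannot be told apart in any value given here, those of the β-catenin targets among them. Cell type markers are counted past both thresholds, an adjusted p below 0.05 and a 2-fold change, unless said otherwise. Of all genes tested 8.17% were higher and 4.52% lower past both. With an adjusted p below 0.05 at any fold, 37.4% were higher and 19.6% lower. Kupffer cell markers were higher in mutant livers (summed 165 to 170 FPKM against 470 to 477, 3 of 6 past both thresholds). Erythroid markers were lower (1780 to 2005 FPKM against 1001 to 1018, 4 of 5 tested), as were those of stellate cells (49.7 to 51.5 FPKM against 19.1 to 21.2, 3 of 5), and all 5 endothelial markers were lower with an adjusted p below 0.05 (59.0 to 59.8 FPKM against 40.5 to 42.6). The hepatocyte list, led by Alb, summed to between 71628 and 74932 FPKM in WT and between 36164 and 36562 FPKM in mutant livers, with 2 of 5 past both thresholds lower and 1, Tat, higher. Cholangiocyte markers summed to 39.6 to 43.1 FPKM against 18.5 to 19.3 (1 of 4 tested lower past both thresholds). Spp1, the gene past both thresholds, made up most of that sum (means of 36.7 and 15.3 FPKM). The other members had no single direction. Epcam was lower (1.29 to 0.421 FPKM) and Sox9 higher (0.528 to 0.811 FPKM), each without overlap of the groups. Krt19 and the untested Krt7 overlapped between groups. Lymphocyte markers summed to 13.98 to 14.5 FPKM against 3.40 to 4.10 (2 of 3 lower). Proliferation markers summed to 7.86 to 8.33 FPKM against 13.9 to 15.0 (1 of 4 past both thresholds, all 4 higher with an adjusted p below 0.05). The acinar gene Cela1 was higher in mutant livers (2.59 to 34.1 FPKM) while Cpa1 was listed at 0 in each liver, and skeletal muscle markers summed to at most 0.135 FPKM in any liver. The part of these cell types in the results was not tested. Depth, estimated from the step between low FPKM values of single-exon genes, was 24500000 to 24700000 fragments in WT and 16900000 to 19400000 fragments in mutant livers.

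Of the 47 genes, 38 had a mean of at least 0.5 FPKM and were tested with limma on log2(FPKM + 1) among 13243 genes. A gene was said to have risen or fallen when its Benjamini-Hochberg adjusted p was below 0.05 and its fold change on that scale was at least 2. Of the 38, 5 rose, namely Slc25a45, Slc25a1, Slc25a44, Slc25a17 and Slc25a15, beside 8.17% of all genes tested. Slc25a30, Slc25a4, Slc25a25 and Slc25a33 fell, 4 of 38, beside 4.52% of all genes. At any fold change 13 carriers were higher and 11 lower with an adjusted p below 0.05, where 37.4% and 19.6% of all genes were. The balance of directions depended on how the livers were scaled. With median-ratio scaling 3 carriers rose and 4 fell beside 851 and 751 of all genes, where 1082 and 598 had done so without it. At any fold it gave 12 carriers higher and 12 lower beside 3590 and 3578 of all genes, against 4952 and 2599. In 25 of the 38 the values of the WT livers did not overlap those of the mutant livers, and neither did they in 66.0% of all genes. The median log2 fold change of the carriers was 0.09 and that of all genes 0.14. Their median absolute log2 fold change was 0.43, against 0.35.

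**Figure D1:**
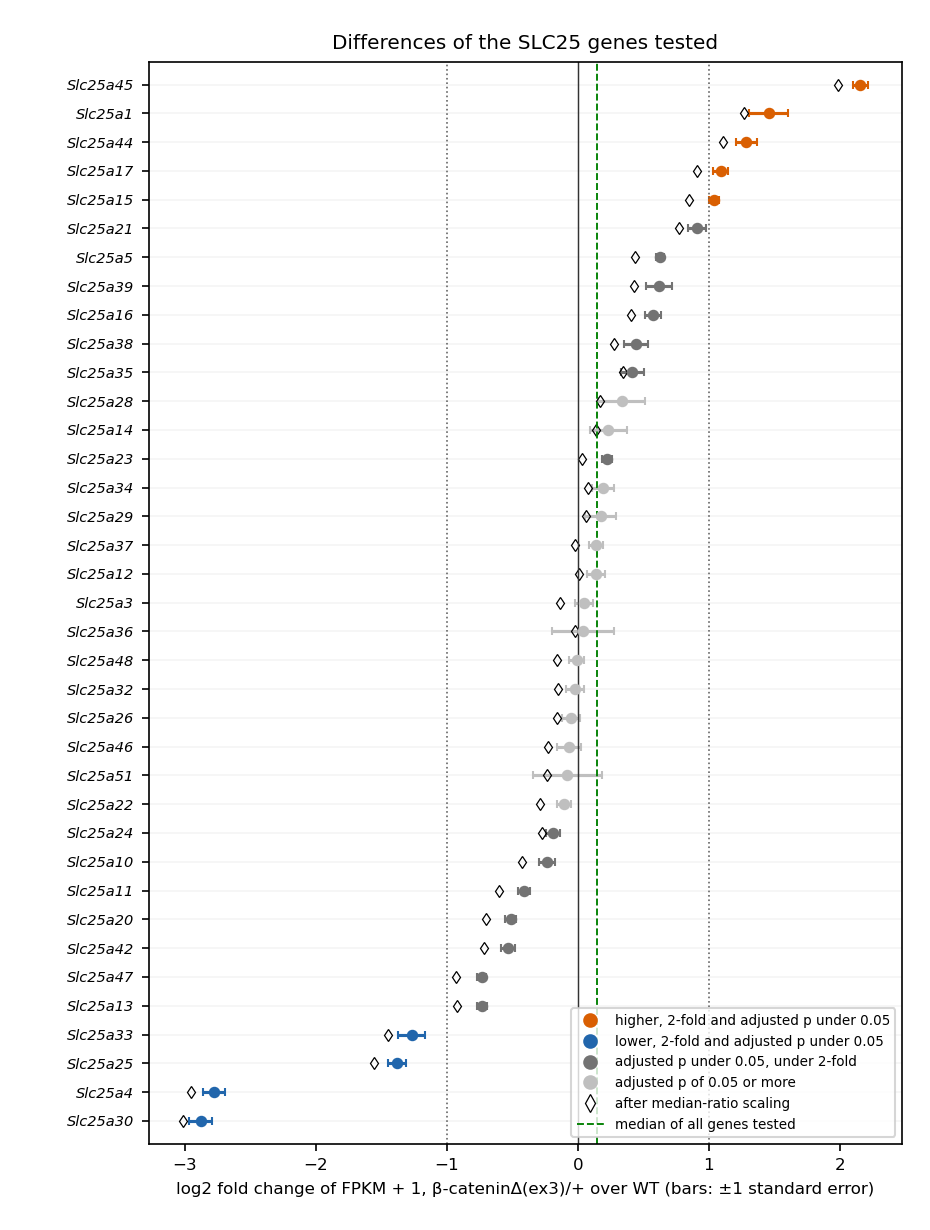
Log2 fold change (β-cateninΔ(ex3)/+ over WT) of FPKM + 1 for 37 of the 38 SLC25 genes tested, as points with bars of 1 standard error, with open diamonds for the value after median-ratio scaling of the livers. The 5 orange and 4 blue points passed both thresholds, and Slc25a15 and Slc25a17 lie inside the 2-fold lines after scaling.

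The family as a whole changed little in amount beside its members. Its summed FPKM was 855, 854 and 853 in the WT livers and 929, 921 and 871 in the mutant livers, which was 0.192% and 0.194% of all FPKM. What it was made of did change. Slc25a47 was the most abundant carrier in WT livers with 22.5% of the family FPKM, and Slc25a5 took that place in mutant livers with 20.6%. The 10 carriers with the highest means held 73.4% ± 0.209 of the family in WT and 79.3% ± 0.810 in mutant livers (SD, n = 3).

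**Figure D2:**
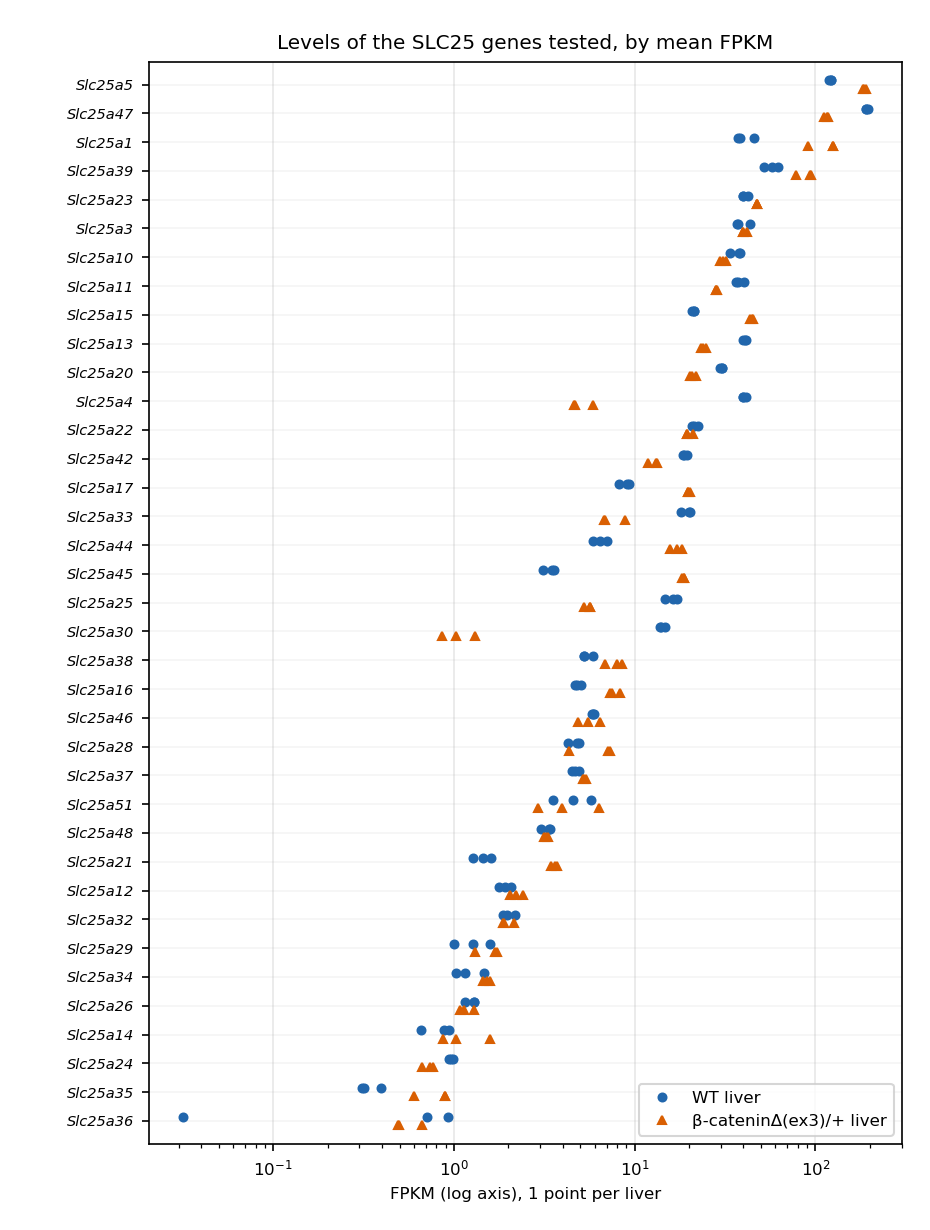
FPKM of 37 of the 38 SLC25 genes tested on a log axis, 1 point per liver (circles WT, triangles β-cateninΔ(ex3)/+), ordered by the mean over the 6 livers. Slc25a4 and Slc25a30 show the widest gaps between groups, and Slc25a36 has 1 WT liver at 0.0317 FPKM.

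The ADP/ATP carriers moved in opposite directions. Slc25a4 (ENSMUSG00000031633, chr8:46206797-46211284, minus strand) encodes ANT1, the form typical of heart and muscle, and measured 41.4, 39.8 and 39.9 FPKM in WT livers and 4.62, 5.86 and 4.69 FPKM in mutant livers. It fell 7.99-fold by the ratio of means (log2 fold change −2.78 ± 0.086 SE, limma adjusted p = 2.28e-06). Slc25a5 (ENSMUSG00000016319, chrX:36795651-36798807, plus strand) encodes ANT2, the widespread form, and went the other way, from 119, 122 and 122 FPKM to 192, 182 and 187 FPKM. Its log2 fold change of 0.63 ± 0.0319 was short of 2-fold (adjusted p = 1.81e-05). Summed, the pair measured 161 ± 0.964 FPKM in WT and 192 ± 4.08 FPKM in mutant livers, so the summed FPKM was higher in the livers in which ANT1 was lower. These sums are of FPKM as listed. Median-ratio scaling of the livers lowered the log2 fold change of Slc25a5 to 0.43, so the size of that difference depends on scaling. Slc25a5 exceeded Slc25a4 by 2.99-fold in WT and 37.2-fold in mutant livers. Of the 75-base stretches of Slc25a5 transcripts, 19.8% also occur in 6 other genes, all annotated copies, so its level is less certain than that of Slc25a4, which shares none. The third gene of the group that is expressed, the phosphate carrier Slc25a3, brings in the phosphate for ATP synthesis and measured 43.2, 37.2 and 37.0 FPKM in WT and 39.9, 39.8 and 41.7 FPKM in mutant livers. Its groups overlapped (log2 fold change 0.05, adjusted p = 0.564). The sign of that value turned after scaling the livers by median ratios (−0.14).

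The gene with the largest fall of the family was Slc25a30 (ENSMUSG00000022003, chr14:75760117-75787037, minus strand), a relative of the uncoupling proteins known as KMCP1. It measured 13.8, 14.7 and 13.97 FPKM in WT livers and 1.31, 0.859 and 1.03 FPKM in mutant livers. The means differed 13.3-fold (log2 fold change −2.88 ± 0.0893, adjusted p = 2.29e-06). Its closest relative, Slc25a14, was low and showed no such gap, with 0.935, 0.657 and 0.878 FPKM against 0.865, 1.59 and 1.03 FPKM (adjusted p = 0.2). Slc25a30 thus stood 17.4-fold above Slc25a14 in WT livers, and in mutant livers the ratio of Slc25a14 to Slc25a30 was 1.07. Slc25a27, the third of these relatives, was below the minimum, at 0.438 to 0.616 FPKM in WT and 0.166 to 0.263 FPKM in mutant livers.

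**Figure D3:**
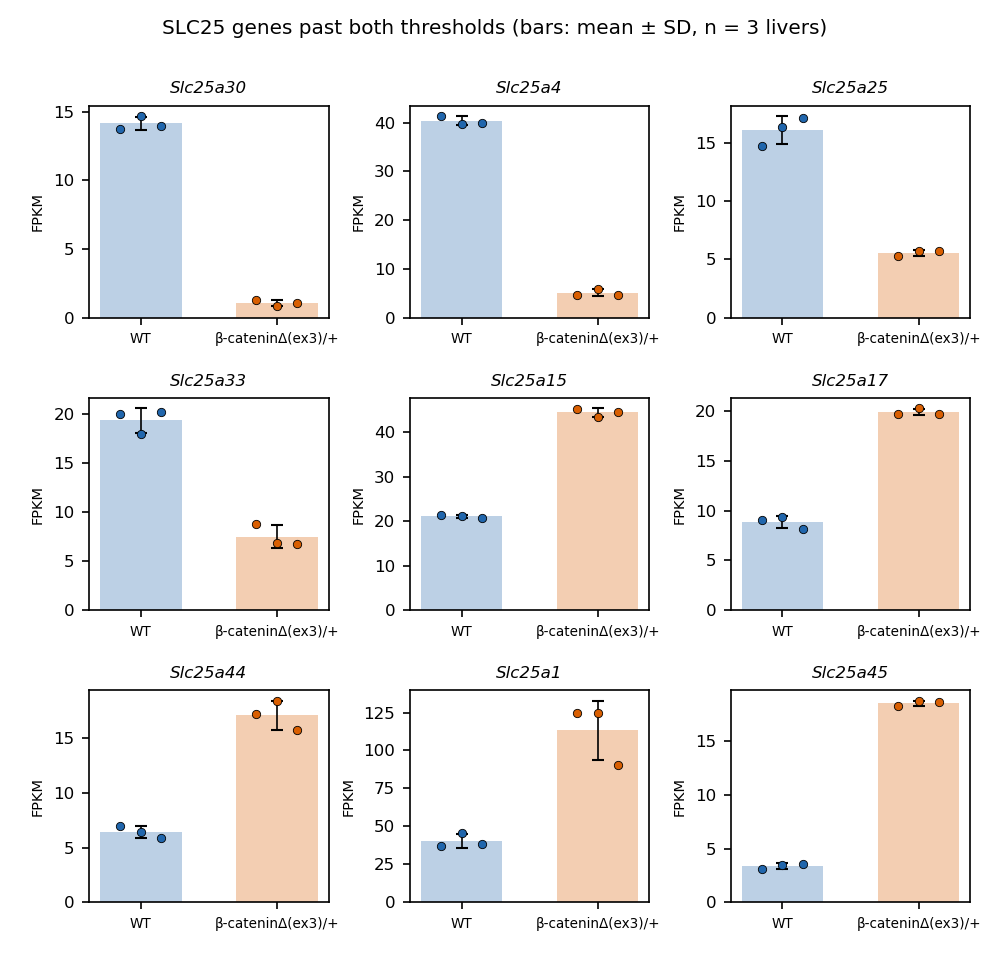
FPKM of the 9 SLC25 genes past both thresholds, with bars for the mean of 3 livers, error bars of 1 SD and a point per liver. In each of the 9 the WT and mutant livers are apart, and the third mutant liver is the lowest of its group for Slc25a1 at 90.5 FPKM.

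The calcium-dependent ATP-Mg/phosphate carriers, which adjust the adenine nucleotide pool of the matrix, gave another pair with a shifted balance. Slc25a25 (ENSMUSG00000026819, chr2:32414487-32451422, minus strand) measured 14.7, 16.4 and 17.2 FPKM in WT livers and 5.27, 5.68 and 5.67 FPKM in mutant livers. It fell 2.90-fold (log2 fold change −1.38 ± 0.0678, adjusted p = 1.54e-05). Slc25a23 was the main member in both groups, at 39.9, 42.3 and 39.8 FPKM and then 47.3, 47.6 and 47.7 FPKM. Its log2 fold change of 0.22 had an adjusted p of 0.00347 and turned to −0.0351 after quantile normalization. The sum of both was 56.8 ± 2.02 FPKM in WT and 53.1 ± 0.416 FPKM in mutant livers, and Slc25a23 went from 2.53-fold to 8.58-fold above Slc25a25. Slc25a24 was low in both groups (means of 0.962 and 0.720 FPKM, log2 fold change −0.19).

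Among carriers of di- and tricarboxylates the citrate carrier rose and none fell past 2-fold. Slc25a1 (ENSMUSG00000003528, chr16:17925223-17928219, minus strand) exports citrate to the cytosol and measured 37.1, 45.7 and 38.1 FPKM in WT livers and 125, 125 and 90.5 FPKM in mutant livers. The mutant livers spread more than the WT livers, yet the lowest of them was above every WT liver. The change was 2.81-fold (log2 fold change 1.46 ± 0.148, adjusted p = 0.000367). Slc25a10, the dicarboxylate carrier, measured 38.2, 33.7 and 37.8 FPKM against 31.9, 31.0 and 29.6 FPKM. Slc25a11, the oxoglutarate carrier of the malate-aspartate shuttle, measured 37.4, 40.2 and 36.5 FPKM against 28.5, 28.3 and 28.2 FPKM. Both were lower by less than 2-fold, with log2 fold changes of −0.24 (adjusted p = 0.0175) and −0.41 (adjusted p = 0.000543). Slc25a21, which carries oxoadipate, was scarce and went from a mean of 1.45 to 3.59 FPKM, which is 2.48-fold by the ratio of means. On the log2(FPKM + 1) scale its change was 0.91, under the threshold, since the added 1 weighs on low values.

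Genes on either side of the citrate carrier were examined beside it. Of 9 genes of pyruvate and citrate metabolism 4 rose and 1 fell, beside 8.17% and 4.52% of all genes tested. Acly, which splits the exported citrate, went from 11.1 ± 0.353 to 48.1 ± 0.821 FPKM (log2 fold change 2.02). Malic enzyme Me1 went from 4.78 ± 0.256 to 25.8 ± 0.7498 FPKM (2.22). Citrate synthase Cs changed by 1.09 and the pyruvate dehydrogenase subunit Pdha1 by 1.03 on the log2 scale. Pck1, the cytosolic enzyme that opens gluconeogenesis, fell from 560.3 ± 6.61 to 205 ± 5.21 FPKM (−1.45). Pyruvate carboxylase Pcx was lower by 0.88 on the log2 scale and was under the 2-fold threshold. The median of the 9 was −0.08, so the list as a whole had no single direction.

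The ornithine carrier Slc25a15 (ENSMUSG00000031482, chr8:22375551-22398597, minus strand), ORC1, exchanges ornithine for citrulline in the urea cycle. It measured 21.4, 21.2 and 20.8 FPKM in WT livers and 45.3, 43.5 and 44.7 FPKM in mutant livers. Within each group the livers lay within 2 FPKM of each other. The rise was 2.11-fold (log2 fold change 1.04 ± 0.0363, adjusted p = 3.79e-06), and it was 0.85 after median-ratio scaling, below the threshold. The second ornithine carrier gene, Slc25a2, stayed below the minimum with at most 0.428 FPKM in any liver. The basic amino acid carrier Slc25a29 went from a mean of 1.28 to 1.57 FPKM (adjusted p = 0.254).

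Of the 7 urea cycle and ornithine genes tested beside it, 4 rose and none fell, beside 8.17% and 4.52% of all genes tested. In that list 1 was lower without reaching 2-fold. Oat, ornithine aminotransferase of the matrix, went from 15.7 ± 0.752 to 608 ± 7.03 FPKM (log2 fold change 5.19) and is also one of the β-catenin targets used above. Ass1, which joins citrulline and aspartate, went from 173 ± 5.18 to 785 ± 32.8 FPKM (2.17). Nags, which makes the activator of the first step, changed by 1.63 and Asl by 1.13 on the log2 scale. The median of the 7 was 1.13, and 0.94 after median-ratio scaling.

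The aspartate/glutamate carriers supply aspartate to the urea cycle and reducing equivalents to the matrix. Slc25a13 (citrin, chr6:6041218-6217173, minus strand), the liver form, measured 40.8, 41.3 and 39.8 FPKM in WT livers and 24.8, 23.4 and 23.9 FPKM in mutant livers. It was lower by 0.73 ± 0.0393 on the log2 scale, that is 1.69-fold by the ratio of means (adjusted p = 2.23e-05). Slc25a12 (aralar), the form of brain and muscle, measured 2.07, 1.92 and 1.79 FPKM against 2.05, 2.40 and 2.20 FPKM and overlapped between groups (adjusted p = 0.139). Their sum was 42.6 ± 0.851 FPKM in WT and 26.2 ± 0.560 FPKM in mutant livers, and citrin exceeded aralar by 21.1-fold and 10.8-fold. In this pair the summed FPKM was lower in mutant livers, whereas that of the ADP/ATP carriers was higher before any scaling of the livers. The glutamate carrier Slc25a22 measured 21.3, 20.7 and 22.5 FPKM against 21.04, 19.4 and 19.4 FPKM (adjusted p = 0.145), and its relative Slc25a18 was below 0.1 FPKM in each liver. Slc25a38, the glycine carrier that feeds heme synthesis, was higher by 0.44 on the log2 scale (5.44 to 7.78 FPKM).

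Among 8 shuttle and glutamate genes tested, 2 rose and none fell past 2-fold, beside 8.17% and 4.52% of all genes tested. Both were alanine aminotransferases, Gpt (4.02 ± 0.181 to 78.2 ± 1.71 FPKM, log2 fold change 3.98) and Gpt2 of the matrix (3.51 ± 0.214 to 46.1 ± 1.05 FPKM, 3.38). Glutamate dehydrogenase Glud1, the most abundant of the list, was lower by 0.77 on the log2 scale (335 to 196 FPKM).

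Slc25a44 (ENSMUSG00000050144, chr3:88410498-88425139, minus strand) carries branched-chain amino acids into mitochondria and is best known from brown fat. It measured 7.00, 6.42 and 5.87 FPKM in WT livers and 17.3, 18.4 and 15.7 FPKM in mutant livers. The groups were apart and the rise was 2.66-fold (log2 fold change 1.29 ± 0.0819, adjusted p = 4.72e-05). Markers of brown adipocytes rose too, from a sum of at most 0.248 FPKM to at least 16.4 FPKM, and their part in this value was not tested.

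The carnitine/acylcarnitine carrier Slc25a20 measured 29.6, 30.6 and 30.6 FPKM in WT livers and 20.8, 21.8 and 20.1 FPKM in mutant livers. It was lower in every mutant liver, by 0.51 ± 0.0436 on the log2 scale, and under 2-fold (adjusted p = 0.000166). In the carnitine shuttle list 2 of 6 fell and none rose, beside 4.52% and 8.17% of all genes tested. Cpt1a, which makes acylcarnitine at the outer membrane, fell from 67.0 ± 0.268 to 21.5 ± 0.380 FPKM (log2 fold change −1.60). The peroxisomal Crot fell from 174 ± 5.68 to 67.3 ± 0.391 FPKM (−1.36).

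Carriers of cofactors and nucleotides held 1 gene that rose and 1 that fell. Slc25a17 (ENSMUSG00000022404, chr15:81318911-81360812, minus strand), a carrier of CoA, FAD and related cofactors that resides in peroxisomes, measured 9.04, 9.32 and 8.16 FPKM in WT livers and 19.7, 20.3 and 19.7 FPKM in mutant livers. It rose 2.25-fold (log2 fold change 1.09 ± 0.0571, adjusted p = 2.02e-05), and 0.91 after median-ratio scaling was below the threshold. Slc25a33 (ENSMUSG00000028982, chr4:149744036-149774277, minus strand), which imports pyrimidine nucleotides and is also called PNC1, measured 19.99, 17.9 and 20.2 FPKM in WT livers and 8.82, 6.86 and 6.78 FPKM in mutant livers. It fell 2.59-fold (log2 fold change −1.27 ± 0.106, adjusted p = 0.000155). The second pyrimidine nucleotide carrier, Slc25a36, was scarce, at 0.0317, 0.928 and 0.712 FPKM in WT and 0.489, 0.496 and 0.669 FPKM in mutant livers. The first WT liver stood far below the rest for Slc25a36, and 5.52% of its 75-base stretches occur in another gene. The log2 ratio of Slc25a33 to Slc25a36 was lower by 2.36 in mutant livers with that liver and by 0.78 without it.

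The mitochondrial CoA carrier Slc25a42 was lower by 0.53 on the log2 scale (18.9 to 12.8 FPKM), while Slc25a16, also linked to CoA, was higher by 0.57 (4.84 to 7.69 FPKM). The carriers of S-adenosylmethionine (Slc25a26), folate (Slc25a32) and NAD (Slc25a51) had log2 fold changes of −0.05, −0.02 and −0.08, with overlapping groups and adjusted p of 0.529, 0.819 and 0.813. For Slc25a51 the livers of a group ranged widely, from 3.54 to 5.72 FPKM in WT and from 2.92 to 6.37 FPKM in mutant livers, and a difference within these ranges was not detectable.

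Slc25a39, the glutathione carrier, was the fourth most abundant carrier and measured 57.3, 52.2 and 61.9 FPKM in WT livers and 93.6, 94.3 and 77.7 FPKM in mutant livers. It was higher by 0.62 ± 0.0979 on the log2 scale (adjusted p = 0.00242), under 2-fold. The iron carriers, the mitoferrins Slc25a37 and Slc25a28, did not pass the threshold. Slc25a37, which supplies iron to red cell precursors, measured 4.69, 4.52 and 4.90 FPKM against 5.27, 5.16 and 5.41 FPKM (adjusted p = 0.0577). Slc25a28 measured 4.93, 4.26 and 4.77 FPKM against 4.33, 7.35 and 7.11 FPKM (adjusted p = 0.163). Of 9 iron and heme genes 5 were higher and 2 lower with an adjusted p below 0.05, beside 37.4% and 19.6% of all genes tested. None of the 5 was higher by 2-fold on the log2(FPKM + 1) scale. Among them was the iron-sulfur scaffold gene Iscu (21.2 to 34.2 FPKM, log2 fold change 0.66), and the median of the list was 0.39. The 2 lower genes fell past both thresholds, beside 4.52% of all genes tested. They were the erythroid Alas2 (20.8 to 9.75 FPKM) and the transferrin receptor Tfrc (18.6 to 7.04 FPKM), beside the lower erythroid markers given above.

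Of the carriers without a substrate assigned here, Slc25a45 had the largest rise of the family. Slc25a45 (ENSMUSG00000024818, chr19:5877808-5885766, plus strand) measured 3.10, 3.47 and 3.59 FPKM in WT livers and 18.3, 18.7 and 18.7 FPKM in mutant livers. The rise was 5.47-fold (log2 fold change 2.16 ± 0.0572, adjusted p = 1.16e-06). Slc25a47 (chr12:108836046-108856815, plus strand), a carrier largely restricted to the liver, measured 195, 191 and 191 FPKM in WT livers and 118, 111 and 117 FPKM in mutant livers. It was lower by 0.73 ± 0.034 on the log2 scale (adjusted p = 1.24e-05). Slc25a47 was the more abundant of both in each group, and their sum went from 196 ± 2.33 to 134 ± 3.43 FPKM. Slc25a47 exceeded Slc25a45 by 56.8-fold in WT and 6.21-fold in mutant livers. Slc25a35 was higher by 0.42 on the log2 scale at low levels (0.394, 0.311 and 0.319 FPKM against 0.890, 0.894 and 0.602 FPKM, 2.33-fold by the ratio of means, adjusted p = 0.00801). Its relative Slc25a34 measured 1.16, 1.03 and 1.46 FPKM against 1.46, 1.59 and 1.52 FPKM and did not pass (adjusted p = 0.104). Slc25a46, at the outer membrane, and Slc25a48 had log2 fold changes of −0.07 and −0.01 with overlapping groups.

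**Figure D4:**
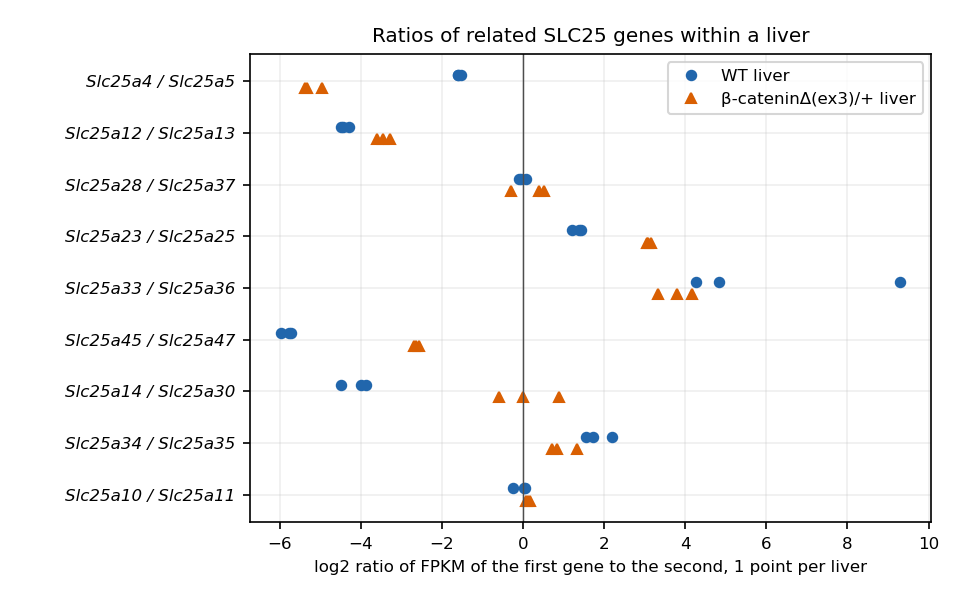
Log2 ratio of FPKM of the first to the second gene of 9 related SLC25 pairs, 1 point per liver (circles WT, triangles β-cateninΔ(ex3)/+). The WT and mutant livers do not overlap in 8 pairs and overlap for Slc25a28 / Slc25a37, and the WT point near 9 for Slc25a33 / Slc25a36 is the first WT liver.

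A ratio of 2 genes within a liver does not depend on a factor applied to all genes of that liver, as in median-ratio scaling. Quantile normalization, which changes genes by their rank, can alter it. Of 12 pairs of related carriers 9 could be tested, and in 8 the groups did not overlap. Of single genes 66.0% did not overlap, and the share among pairs of other genes was not computed. The differences of the mean log2 ratio, mutant minus WT, were −3.64 for Slc25a4 to Slc25a5, 3.19 for Slc25a45 to Slc25a47, 4.21 for Slc25a14 to Slc25a30, 1.76 for Slc25a23 to Slc25a25 and 0.96 for Slc25a12 to Slc25a13. Each of the 8 had a 2-sided exact permutation p of 0.1, the smallest that 3 against 3 livers allow, and 0.112 after adjustment over the 9 pairs. The difference for Slc25a10 to Slc25a11 was 0.18 and that for Slc25a34 to Slc25a35 −0.87. For the mitoferrins, Slc25a28 to Slc25a37, it was 0.22 (exact p = 0.4).

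Of the 47 genes, 9 stayed below the minimum of 0.5 FPKM and were not tested. Slc25a54 was listed at 0 in each liver. The others were Slc25a2, Slc25a18, Slc25a27, Slc25a31 (the testis ADP/ATP carrier), Slc25a40, Slc25a41, Slc25a43 and Slc25a53. None of these 9 exceeded 0.616 FPKM in any liver.

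Genes that belong to the same protein family but carry other symbols were looked at beside them. The brown fat uncoupling protein Ucp1 was listed at 0 in 2 WT livers and at 0.05001 FPKM in the third, and measured 4.72, 4.82 and 5.03 FPKM in mutant livers (log2 fold change 2.53). The other brown adipocyte markers moved with it, Adipoq from a mean of 0.0245 to 5.63, Cidea from 0.134 to 4.75 and Plin1 from 0.00291 to 1.57 FPKM. The summed list ran from 0.05001 to 0.248 FPKM in WT and from 16.4 to 17.0 FPKM in mutant livers. In it 4 of 4 rose, beside 8.17% of all genes tested. The part of brown adipocytes in the value of Ucp1 and of other genes active in fat was not tested. Ucp2 did not differ detectably (15.5 ± 2.88 and 15.7 ± 0.778 FPKM, adjusted p = 0.852). Mtch2, a relative at the outer membrane, was higher by 0.68 on the log2 scale, and Mtch1 by 0.34.

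The machinery that imports and inserts carriers was described in the same way. None of its 12 genes passed both limma thresholds, 3 were higher and 3 lower with an adjusted p below 0.05 (6 by the unadjusted p), and their median log2 fold change was 0.0045. Its most abundant genes were the small intermembrane chaperones Timm13 (log2 fold change 0.33) and Timm8a1 (−0.10). None of the 3 porins of the outer membrane rose or fell, and 1, Vdac1, had a p below 0.05 with a log2 fold change of 0.15. Of 6 genes of mitochondrial biogenesis tested none rose or fell, Tfam stood at 11.2 and 10.4 FPKM, and 1 had a p below 0.05, adjusted or not, the helicase Twnk (0.51). None of 7 genes of mitochondrial glycine, serine and folate metabolism reached 2-fold on the log2(FPKM + 1) scale, while 6 had a p below 0.05, with 0.62 for Shmt2 and −0.20 for Gcsh. The folate enzyme gene Mthfd1l, named after its values were seen, was low and went from a mean of 1.36 to 0.304 FPKM, which is 4.46-fold lower by the ratio of means and −0.85 on that scale. Over the 9 lists, 10 of 67 genes tested rose and 5 fell, beside 8.17% and 4.52% of all genes tested. At any fold 28 were higher and 19 lower with an adjusted p below 0.05, beside 37.4% and 19.6% of all genes. Their median log2 fold change was 0.11, and that of all genes was 0.14.

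**Figure D5:**
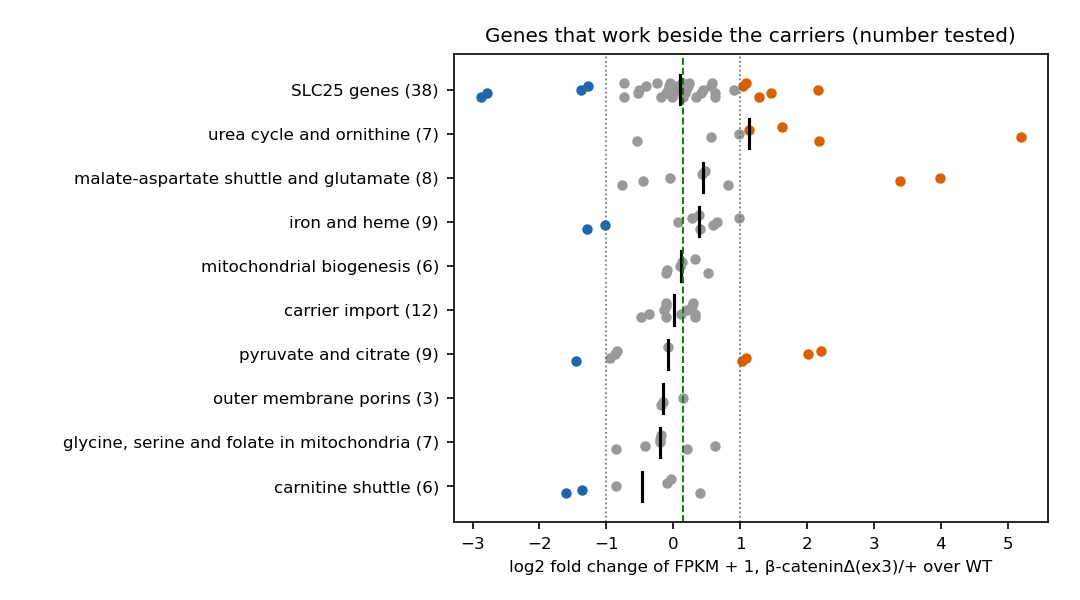
Log2 fold change (β-cateninΔ(ex3)/+ over WT) of the genes tested in 9 lists that work beside the carriers and of the SLC25 genes, 1 point per gene, with a black line at the median of the list and a green line at the median of all genes. Points past both thresholds are orange (higher) or blue (lower), and none lie in the lists of carrier import, porins, biogenesis and glycine, serine and folate.

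The sequences before the start of the carriers were examined because β-catenin acts with TCF/LEF factors on DNA. RefSeq windows of 300 bases around the start (GRCm38.p6) were at hand for 36 of the 47 carriers, 46 windows in all, and for 8 of the 9 that rose or fell. The letters CTTTGAT or CTTTGAA, read on both strands, occurred in 4 of the 46 windows (8.70%) and in 8.65% of the 32851 windows of all genes. The 4 belonged to Slc25a11, Slc25a22, Slc25a28 and Slc25a43, and none to a carrier that rose or fell. CCAAT, read on both strands, occurred in 47.8% of the carrier windows and in 37.4% of all windows. It was present for each of the 4 carriers that fell and for 2 of the 4 that rose and have a window. Counted by gene in this way, 19 of the 36 carriers held it, and Slc25a25, which fell, has 3 windows in which it could occur. The windows of the carriers were richer in G and C than those of all genes, with medians of 59.3% and 52.7%. These matches describe letters and not bound sites.

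The stretches upstream of both the RefSeq start and the start in the deposited table are printed for 2 carriers that fell and 2 that rose, to show the letters searched. Slc25a30 and Slc25a45 had the largest fall and rise of the family, and Slc25a33 and Slc25a1 are a further carrier of each direction. They are 5′ to 3′ on the strand of the gene, and capitals mark CCAAT and AGGTCA, each read on both strands. AGGTCA, the core letters of nuclear receptor sites, occurred in 16.3% of all windows and in 4 of the 46 carrier windows. Besides Slc25a45, these belonged to Slc25a34, Slc25a39 and Slc25a47, none of which rose or fell past both thresholds. Slc25a30 (chr14:75787038-75787287, minus strand, 250 bases) and Slc25a33 (chr4:149774278-149774517, minus strand, 240 bases) fell. Slc25a1 (chr16:17928220-17928469, minus strand, 250 bases) and Slc25a45 (chr19:5877572-5877807, plus strand, 236 bases) rose.
Slc25a30: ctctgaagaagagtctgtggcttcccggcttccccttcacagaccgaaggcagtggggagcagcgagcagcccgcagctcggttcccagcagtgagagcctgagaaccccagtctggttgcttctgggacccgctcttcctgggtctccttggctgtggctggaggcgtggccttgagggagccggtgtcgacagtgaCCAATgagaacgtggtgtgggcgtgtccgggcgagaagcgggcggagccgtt
Slc25a33: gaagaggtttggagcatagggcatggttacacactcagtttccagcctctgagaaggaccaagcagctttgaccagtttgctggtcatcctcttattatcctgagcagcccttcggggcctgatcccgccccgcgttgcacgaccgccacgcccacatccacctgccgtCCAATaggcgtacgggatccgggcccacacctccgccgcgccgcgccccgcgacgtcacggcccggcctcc
Slc25a1: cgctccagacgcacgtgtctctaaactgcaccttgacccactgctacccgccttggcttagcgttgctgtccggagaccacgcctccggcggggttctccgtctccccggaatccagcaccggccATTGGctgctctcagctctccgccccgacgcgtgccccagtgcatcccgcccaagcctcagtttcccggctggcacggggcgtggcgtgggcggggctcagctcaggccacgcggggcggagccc
Slc25a45: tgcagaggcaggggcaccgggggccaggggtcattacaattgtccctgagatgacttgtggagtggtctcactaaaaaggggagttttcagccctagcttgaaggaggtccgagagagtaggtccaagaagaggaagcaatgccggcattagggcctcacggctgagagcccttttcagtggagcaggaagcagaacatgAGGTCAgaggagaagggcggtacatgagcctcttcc
Slc25a30, Slc25a33 and Slc25a1 each hold 1 CCAAT here and no AGGTCA, and Slc25a45, the gene with the largest rise, holds 1 AGGTCA and no CCAAT.

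Some carriers lie next to each other or across other genes. Slc25a29 and Slc25a47 start 162 bases apart on opposite strands in the deposited table. The RefSeq window around the start of Slc25a47 lies elsewhere, at chr12:108850879-108851178, inside the gene as listed. Whether the 2 genes start side by side in these livers was not tested. Slc25a47 was lower in mutant livers while the scarce Slc25a29 did not pass the test. Naif1 overlaps Slc25a25 on the opposite strand and was at means of 0.718 and 1.05 FPKM, low beside Slc25a25. Rangrf overlaps Slc25a35 in the same way and went from 0.701 to 1.80 FPKM, above the level of Slc25a35 itself. The libraries keep the strand, but whether counting used it was not given in the sources used here.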

How the data were processed

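Liver mRNA of 3 WT and 3 β-cateninΔ(ex3)/+ mice was measured by poly(A)-selected, strand-specific, paired-end RNA-seq. The authors deposited 1 table of FPKM values per gene and liver (fragments scaled to transcript length and library size). The submitters' processing notes name cutadapt 1.9, HISAT2 2.0.4, StringTie 1.3.4d, DESeq2 and edgeR, without saying what each was used for. The genome build was not given in the sources used here. Of the 31950 gene identifiers 28911 have the start and end of GENCODE M21 (GRCm38), 39 of the 47 SLC25 genes among them. This normalization makes each value relative to the rest of its library.

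Genes with a mean of at least 0.5 FPKM (13243) were tested with limma 3.58.1 in R 4.3.3 (lmFit and eBayes with a trend) on log2(FPKM + 1), with Benjamini-Hochberg adjustment over all of them. A call needed an adjusted p below 0.05 and an absolute log2 fold change of at least 1, the fold and false discovery rate the study used, although the study tested with DESeq2 and FPKM are not counts. A fold change on this scale understates that of low genes. Pairs of carriers were compared by 2-sided exact permutation tests of log2 ratios. The procedure was tested on simulated data of 12423 genes with 177 changed, of which 84.2% were called, and 0% of the unchanged. The simulation gave every liver the same depth, a small spread between livers and few changed genes. It did not model the unequal depth or the broad changes of the real livers. It therefore cannot tell how often calls in the real livers are false.

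Members and lists were chosen with earlier results of these data known. Every gene matching the name rule was counted, 1 of the tested carriers is not reported here by name, values per liver are given for genes past both thresholds, the 10 highest and members of tested pairs, and partner genes are named where they were called or among the 2 most abundant of their list. The study's methods give 3 livers per group, so p-values measure the spread between livers. Livers with the same number did not deviate together (r of 0.0268, 0.0213 and −0.0054), so numbers were not used as pairs. Over 1854 genes of at least 20 FPKM the median coefficient of variation was 4.50% in WT and 3.31% in mutant livers. Promoter windows came from RefSeq (GRCm38.p6).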

Additional observations from a re-analysis of the deposited data

How the results depend on the processing

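Median-ratio scaling and quantile normalization shifted the median change over all genes by −0.14 and −0.16 (log2), and 3 carriers instead of 5 then rose under each, since Slc25a15 (0.85 and 0.77) and Slc25a17 (0.91 and 0.81) came under 2-fold, while 4 and 5 fell, Slc25a13 (−1.01) joining under quantile normalization. All genes gave 851 higher and 751 lower, and 797 and 812. At any fold quantile normalization gave 11 carriers higher and 14 lower beside 3330 and 3869 of all genes. The sign turned under the 2 scalings for Slc25a3 (−0.14, −0.20), Slc25a36 (−0.0226, −0.0337) and Slc25a37 (−0.0227, −0.0528), and under quantile normalization for Slc25a12 (−0.0096) and Slc25a23 (−0.0351). List medians under the 2 scalings were −0.63 and −0.70 (carnitine shuttle), −0.11 and −0.15 (carrier import, reversed), −0.37 and −0.47 (glycine, serine and folate), 0.21 and 0.11 (iron and heme), 0.26 and 0.19 (malate-aspartate shuttle), −0.33 and −0.44 (porins), 0.94 and 0.85 (urea cycle), and under quantile normalization −0.00054 (biogenesis, reversed) and −0.35 (pyruvate and citrate). With a log2 threshold of 0.5, 10 carriers rose and 8 fell, and 2837 and 1493 of all genes. With a pseudocount of 0.1 all genes gave 1706 and 999, and Slc25a21 (1.26) and Slc25a35 (1.01) rose as well. With a pseudocount of 1, ratios differed by −3.40 (Slc25a4/Slc25a5), 1.60 (Slc25a23/Slc25a25), 2.89 (Slc25a45/Slc25a47), 3.11 (Slc25a14/Slc25a30) and −0.23 (Slc25a34/Slc25a35).

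Leaving out each liver in turn, 5 carriers rose and 4 fell each time. Signs turned for 5 carriers that did not pass the test, Slc25a32 (−0.0631 to 0.0213), Slc25a36 (−0.23 to 0.14, not tested without the second WT liver), Slc25a46 (−0.15 to 0.0163), Slc25a48 (−0.0475 to 0.0152) and Slc25a51 (−0.33 to 0.13). With a replicate block 5 rose and 4 fell as well, and 13 were higher and 10 lower at any fold. Over 489 comparisons of single carriers 464 kept direction and side of the threshold, 18 reversed, 4 lost it and 3 gained it. The cause of these shifts was not tested. Low carriers, below about 1 FPKM, are limited by depth.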
